A study of Drosophila melanogaster with 2 samples.

Results

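The 10 genes Pc, trx, kis, fs(1)h, ash1, brm, E(z), Psc, Scm and Trl encode proteins of the Polycomb and Trithorax groups in Drosophila melanogaster. They were taken from the 13968 protein-coding genes of the annotation, and their binding by the zinc-finger protein Pita was read from chromatin immunoprecipitation with sequencing (ChIP-seq) of embryos. The genes were chosen by name with earlier results of the same peak lists known, so which of them carry a peak is given as a description without a test. The list of peaks reproducible between replicates, thresholded by the authors with the irreproducible discovery rate (IDR), held a summit at most 1000 bp from an annotated transcription start (TSS) at 4 of the 10, namely Pc, trx, kis and fs(1)h. No such summit lay inside or near the TSS of ash1, brm, E(z), Psc, Scm or Trl. Of all protein-coding genes, 6.76% had an IDR summit at most 1000 bp from a TSS. Among those at least as long as the shortest of the 4, it was 13.3%.

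The animals were embryos of both sexes, 0 to 24 hours old, from a single transgenic line that stably expressed Pita with GFP fused to its C terminus. The description names an anti-GFP precipitation and the antibody field names pita. Chromatin was sonicated to 200 to 800 bp, and 2 libraries formed 1 group, labelled biological replicates 1 and 3. The design therefore holds no contrast between groups, and whole embryos do not resolve cell types. The labels call the libraries biological replicates but do not say that they came from separate embryo collections, so their spread may be technical.

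Polycomb group proteins keep developmental genes such as the Hox genes silent by placing and reading repressive marks on histones, and Trithorax group proteins keep the same kinds of genes active by methylating or acetylating histones and by moving nucleosomes. Both systems act through DNA elements at which sequence-specific factors are bound, among them the GAGA factor encoded by Trl. Pita is an architectural protein, known for binding boundaries between regulatory domains of the bithorax Hox complex and for binding near promoters through a long sequence read by its zinc fingers.

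The sequence under the peaks was read first. A matrix of 19 bp was learned from the 1088 IDR summits outside the 10 genes that remained after summits near a stronger one were set aside, so that no window at these genes entered it. The strongest summit at fs(1)h, trx, Pc and kis each had a match to it within 100 bp, above the score that 1% of flank windows of 50 bp either side exceeded. The distance and the score were joined after the data were seen. In the window of 50 bp set as the main one, the summit of trx held no match. With the whole match inside 100 bp either side and this score, 2.48% of flank windows centred 500 bp away and 64.3% of the other summits held one. The windows around those 4 matches are given here because they lie under the strongest peaks at these genes. The RefSeq sequence of dm6 was read 5′ to 3′ on the strand of the match, and the capitals mark the matched 19 bp.
fs(1)h, chrX:8061497-8061597, plus strand: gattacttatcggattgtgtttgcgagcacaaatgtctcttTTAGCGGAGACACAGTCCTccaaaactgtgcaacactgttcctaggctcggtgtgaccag
trx, chr3R:14286946-14287046, minus strand: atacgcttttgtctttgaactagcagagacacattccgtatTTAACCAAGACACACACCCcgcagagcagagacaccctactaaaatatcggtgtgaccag
Pc, chr3L:21318081-21318181, plus strand: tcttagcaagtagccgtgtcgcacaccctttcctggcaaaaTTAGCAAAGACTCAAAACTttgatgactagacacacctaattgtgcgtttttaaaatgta
kis, chr2L:251067-251095, plus strand: cgaccTTTTCCTGGACCCAAACCAcgtgc

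At the 4 sites, 9 of the 19 positions held the same base. The sites at fs(1)h, trx and Pc were alike at 13 of 19 positions in each pairing. The site at kis stood further off, with 10 positions shared with fs(1)h, 11 with Pc and 12 with trx. All 4 genes lie on the minus strand of the genome, and only the match at trx was on the strand of its gene. The matches at fs(1)h, trx and Pc were intergenic, 111, 93 and 111 bp upstream of the TSS. The match at kis lay 258 bp upstream of the TSS and inside the 3' UTR of the neighbouring gene Rpp30, which encodes a subunit of ribonuclease P, and its window was kept short for that reason.

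The matrix score of the matches was 16.4 at Pc, 16.3 at trx, 15.0 at kis and 13.6 at fs(1)h, on a log-odds scale. The median over the sites from which the matrix was learned was 16.0 and the highest 24.6. The order of the scores was not the order of the peak signals, since fs(1)h had the highest signal and the lowest score. Matches lay 31 bp from the summit at fs(1)h, 39 bp at Pc, 19 bp at kis and 68 bp at trx. The median distance at the other IDR summits was 21 bp, and 88.1% of their matches within 100 bp lay within 50 bp, so the site at trx was farther from its summit than most.

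Pc and trx each had 2 matches within 100 bp of the strongest summit. At Pc the weaker match, scoring 13.7, lay 7 bp from the summit at chr3L:21318090-21318108 on the plus strand and read GTAGCCGTGTCGCACACCC. At trx the weaker match, scoring 13.2, lay 90 bp from the summit at chr3R:14287009-14287027 on the minus strand and read CTAGCAGAGACACATTCCG. Both stand in lower case within the windows above. Of the 1088 other IDR summits, 64.6% had at least 1 match centred within 100 bp and 20.1% had 2 or more. Among the 430 of those with at least the signal at kis, 86.3% had a match and 36.7% had 2 or more.

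The peaks themselves were read from 4 lists, and each peak's signal is the authors' deposited value. It was used to order and describe entries of the same list, and the replicate lists were also compared and averaged without rescaling. Read depth is unknown, because the lists hold no read counts. The IDR list held 1338 summits with signals from 144 to 4711 and a median of 491. The pooled list and the list of each replicate held 30000 candidates each, deposited as peaks and background together. At rank 1338, where the pooled list ends its IDR part, the signal was 144 in the pooled list, 57.6 in replicate 1 and 83.7 in replicate 3. Over 1291 IDR summits found in both replicate lists, the signal in replicate 3 was a median of 1.20-fold that in replicate 1, a log2 difference of 0.26 with an SD over summits of 0.50.

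Among all protein-coding genes, 7.95% had an IDR summit in the gene or at most 1000 bp from a TSS, and 6.76% had one near a TSS by the same distance. The members' share was 40% by either rule, and nothing is read from it, because they were selected on these results. Genes with a summit tended to be longer, but the ranges of length overlapped. The 4 genes with a summit spanned 11883 to 40089 bp and the 6 without spanned 3556 to 14998 bp. Pc, at 11883 bp, was shorter than brm, Trl and Psc, at 12788, 13121 and 14998 bp. The length of Pc set the cutoff used next, which ash1, E(z) and Scm do not reach. Of the 1683 genes of at least 11883 bp, 19.6% had a summit by the wider rule and 13.3% near a TSS. All 6 summits at the members lay upstream of the TSS and none inside a member.

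Of the Polycomb group members, Pc carried a reproducible peak and E(z), Psc and Scm did not. Pc, whose chromodomain reads methylated lysine 27 of histone H3 for Polycomb repressive complex 1 (PRC1), lies on 3L from 21306138 to 21318020 with 1 annotated TSS. Its peak spanned 467 bp, with the summit at 21318092 in intergenic sequence 72 bp upstream of the TSS. The signal was 1627 in the IDR list, at rank 173, and was 804 in replicate 1 and 819 in replicate 3, or 812 ± 10.5 (SD, n = 2). In deposited signal the replicates were closest at this gene among the 4, but in rank they were furthest apart, at 149 and 196. Their summits lay 17 bp apart. The long noncoding RNA lncRNA:CR45674 starts 558 bp from the summit, and Rab26, which encodes a small GTPase and is transcribed away from Pc, starts 682 bp from it.

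Of the Trithorax group members, trx, kis and fs(1)h carried reproducible peaks and ash1, brm and Trl did not. The gene trx encodes a methyltransferase of lysine 4 of histone H3 and lies on 3R from 14263358 to 14286903, with 5 transcripts from 1 TSS. Its peak spanned 534 bp, and the summit at 14286928 lay 25 bp upstream of the TSS, nearest to its TSS of the 6 summits. Signal was 1651 in the IDR list, at rank 167, 774 in replicate 1 and 867 in replicate 3, or 821 ± 66.0 (SD, n = 2). The nearest other protein-coding start, that of red, was 2143 bp away, so that no coding gene shared this promoter region within 1000 bp.

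The gene fs(1)h encodes the fly member of the BET family, bromodomain proteins that bind acetylated histones, and lies on X from 8037808 to 8061436 with 5 distinct starts. Its peak of 510 bp had the highest signal of the 10 genes, 1816 at rank 137 in the IDR list, with 838 in replicate 1 and 985 in replicate 3, or 912 ± 104 (SD, n = 2). The summit at 8061578 lay 142 bp upstream of fs(1)h and 67 bp from the start of mys, which encodes a beta integrin. The 2 genes are transcribed away from each other from starts 209 bp apart, so the peak cannot be given to fs(1)h alone and lay nearer to mys.

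The gene kis encodes an ATP-dependent chromatin remodeller of the CHD family and is the longest of the 10, on 2L from 210735 to 250823. The 2 annotated starts lie at 250823 and 221962, and the peak of 489 bp was at the first of these. Its summit at 251062 lay 239 bp upstream of that start, in the 3' UTR of Rpp30. The signal was 847 in the IDR list, at rank 451, 383 in replicate 1 and 451 in replicate 3, or 417 ± 48.0 (SD, n = 2). Both replicate values at kis lay below those of the strongest summits at fs(1)h, trx and Pc.

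The order of the strongest summits was fs(1)h, trx, Pc and kis in the pooled list and in replicate 3, and fs(1)h, Pc, trx and kis in replicate 1. The ranges of fs(1)h and trx overlapped across replicates, and so did those of trx and Pc. Within each replicate fs(1)h was highest and kis lowest. The log2 difference between replicates was 0.23 at fs(1)h, 0.16 at trx, 0.03 at Pc and 0.24 at kis. Over all matched summits the median was 0.26 with an SD of 0.50, and Pc lay furthest from that median among these genes. The 944 genes with an IDR summit at most 1000 bp from a TSS had a median signal of 839 at their strongest one, a median distance of 179 bp, and 91.5% had it upstream. The signal at kis lay near that median, and those at fs(1)h, trx and Pc lay above it.

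**Figure D1:**
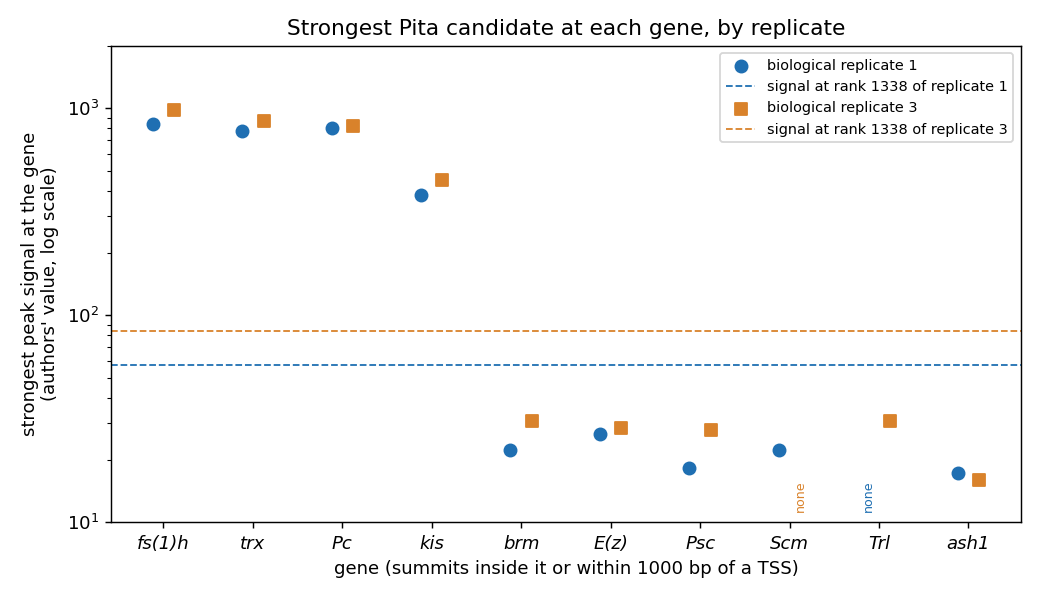
Peak signal (the authors' value, log axis) of the strongest summit or candidate at each of the 10 genes, with circles for replicate 1 and squares for replicate 3, and with dashed lines at the signal of rank 1338 in each replicate, 57.6 and 83.7. No candidate was listed where the plot says none. The 4 genes with an IDR summit lie between 383 and 985 in the replicates, and those without lie at 31.0 or below.

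**Figure D2:**
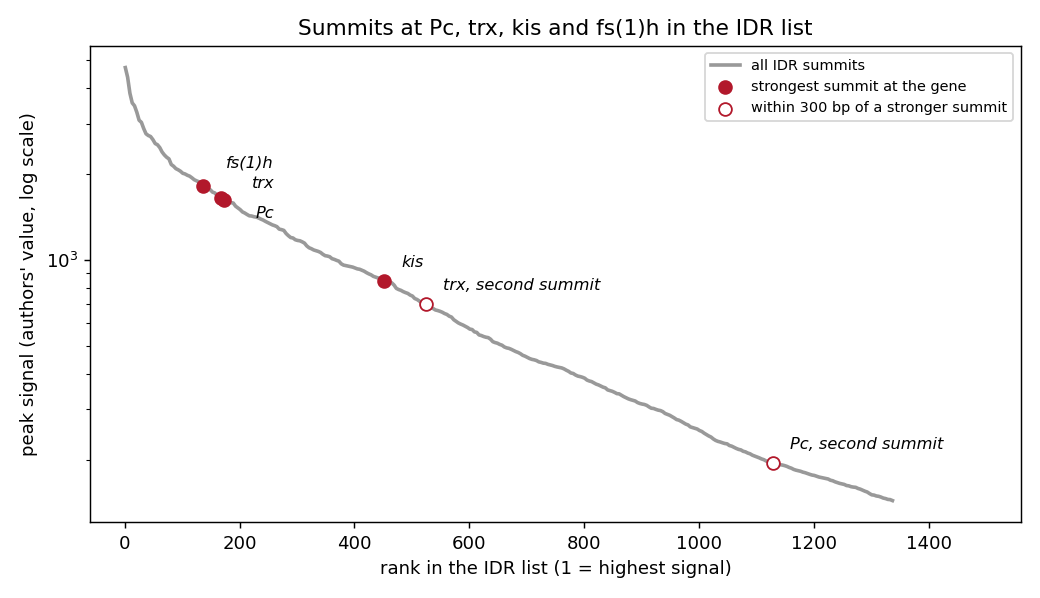
Peak signal (log axis) against rank for the 1338 summits of the IDR list, with the 6 summits at Pc, trx, kis and fs(1)h marked and open circles for the summits within 300 bp of a stronger one. The strongest summits stand at ranks 137, 167, 173 and 451, and the weaker summits of trx and Pc at ranks 525 and 1129.

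Pc and trx each had another summit in the same interval. At trx it lay at 14287140, 212 bp right of the first, with a signal of 701 at rank 525, and with 344 in replicate 1 and 376 in replicate 3. At Pc it lay at 21318296, 204 bp right of the first, with a signal of 194 at rank 1129. The replicates were far apart there, with 17.2 in replicate 1, at rank 18767, and 137 in replicate 3, at rank 1046, a log2 difference of 2.99. The matches at trx, centred 93 and 115 bp upstream of the TSS, lay between its summits at 25 and 237 bp. Neither weaker summit had a match within 100 bp at the score that 1% of flank windows exceeded. Over the whole IDR list, 246 summits lay within 300 bp of a stronger kept one, and 243 of the 246 lay at higher coordinates than it; the median distance was 204 bp. Whether the weaker summits at trx and Pc are separate binding events was not tested.

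**Figure D3:**
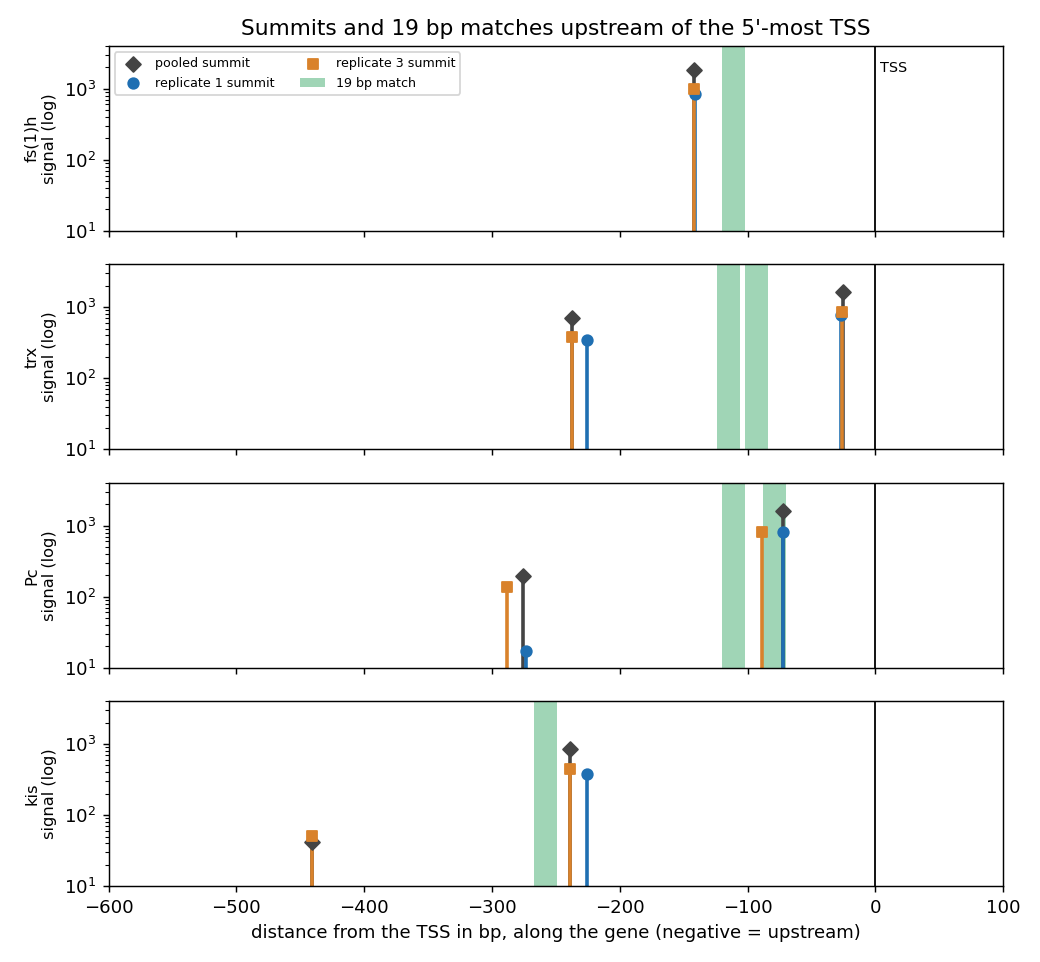
Signal (log axis) of pooled, replicate 1 and replicate 3 summits against the distance in bp from the TSS of fs(1)h, trx, Pc and kis, with green bands for the 19 bp matches. Both matches at trx, 93 and 115 bp upstream, lie between its summits at 25 and 237 bp.

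The 6 genes without an IDR summit had weak candidates or none. The gene brm encodes the ATPase of the fly SWI/SNF remodelling complex and lies on 3L from 15970082 to 15982869. Its strongest pooled candidate had a signal of 54.7 at rank 3629, 890 bp upstream of the TSS, and the strongest in each replicate was 22.5 in replicate 1 and 31.0 in replicate 3. E(z), the methyltransferase of lysine 27 of histone H3 in Polycomb repressive complex 2 (PRC2), lies on 3L from 10634575 to 10638130. It reached 46.0 in the pooled list at rank 6213, 26.6 in replicate 1 and 28.7 in replicate 3. The candidate was in a coding exon in the pooled list and in replicate 1, and in replicate 3 the strongest lay at another place, in an intron 118 bp from a TSS. All of these values lay below the signal at rank 1338 of their list.

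Scm, a SAM-domain protein that associates with PRC1, lies on 3R from 9633359 to 9637611. It had a pooled candidate of 37.5 in its 5' UTR, a candidate of 22.4 in replicate 1 and none in replicate 3. Trl, the GAGA factor, lies on 3L from 14747929 to 14761049. It had no candidate in the pooled list or in replicate 1, and the strongest of 6 in replicate 3 had a signal of 30.9, in the 3' UTR. The gene ash1, which encodes a methyltransferase of lysine 36 of histone H3, lies on 3L from 19590773 to 19598755. It had no pooled candidate, and its candidates of 17.3 in replicate 1 and 15.9 in replicate 3 lay at different places. A pooled candidate in the gene or within 1000 bp of a TSS was found at 8 of the 10 members and at 65.5% of all protein-coding genes.

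The IDR list ended at a pooled signal of 144. The strongest pooled candidate of the 10 genes outside it lay in an intron of trx, 1111 bp from the TSS, with a signal of 71.1 at rank 2075, and the weakest summit inside it was the weaker one at Pc, with 194 at rank 1129. No pooled candidate of these genes lay between those values. Besides their IDR summits, trx had 12 other pooled candidates, kis 14 and fs(1)h 12, whose strongest reached 59.6 at kis and 61.8 at fs(1)h. Pc had none.

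The IDR summits nearest to the genes without one lay 14966 to 62350 bp away. The nearest was 14966 bp from brm, in the 5' UTR class at Pka-C3 and GXIVsPLA2, with a signal of 160. It was 26503 bp from E(z), near simj, with a signal of 968, and 40258 bp from Scm, near p23, with a signal of 2192. It was 41183 bp from Trl, near NHP2, with 1172, and 51937 bp from ash1, near tey and Oat, with 210. At the genes with a peak, the next IDR summit beyond 300 bp was 32537 bp away at fs(1)h, 44003 bp at kis, 104470 bp at trx and 115861 bp at Pc. The spacing of IDR summits over the genome was not computed, so nothing is read from these distances.

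The matrix also allowed the reverse question, which matches at these genes lacked a peak. Above the score that 1% of flank windows exceeded, and with no IDR summit within 100 bp, there were 5 matches at kis, 3 at Trl, 2 at fs(1)h and 1 at brm, counted in the gene and within 1000 bp of a TSS. There were none at Pc, trx, ash1, E(z) or Scm. Over the genome, matches outside IDR summits numbered 85.8 per Mb. The genes span 40089 bp at kis, 13121 bp at Trl, 23629 bp at fs(1)h and 12788 bp at brm. Longer genes hold more matches at that density, so nothing particular to these genes is read from the counts. The best at Trl scored 14.7, more than the site at fs(1)h, and lay in an intron 1401 bp from a TSS. The nearest pooled candidate was 11458 bp from it, and the nearest in replicate 3 was 5203 bp from it. The best at kis scored 15.5, more than the site at the kis promoter, and lay in a coding exon 11244 bp from a TSS with the nearest pooled candidate at 684 bp. Neither reached the scores of the sites at Pc and trx. These are shown because they score above the bound site at fs(1)h and carry no reproducible peak.
Trl intron, chr3L:14759354-14759372 of dm6, minus strand: TCTGCCGAGTCACCCACCA
kis coding exon, chr2L:239570-239588 of dm6, minus strand: ATAGCATTGTCAACAACCA

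Over the genome there were 12786 matches above that score, and 986, or 7.71%, had an IDR summit within 100 bp. The share was higher among matches of higher score. It was 28.8% of 2464 matches scoring at least as high as the site at fs(1)h, 46.3% of 1224 for kis, 59.0% of 727 for trx and 59.2% of 706 for Pc. It was 42.3% of matches scoring at least as high as the one in Trl and 51.5% of those scoring at least as high as the one in the kis exon. Each of these counts all stronger matches as well. In the bin of scores from 12 to 14, which holds the site at fs(1)h, the share was 4.92% of 3661 matches. It was 17.9% of 1121 from 14 to 16, the bin of the matches in Trl and the kis exon and of the site at the kis promoter. From 16 to 18, the bin of the sites at trx and Pc, it was 45.3% of 419. These shares include the summits from which the matrix was learned.

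**Figure D4:**
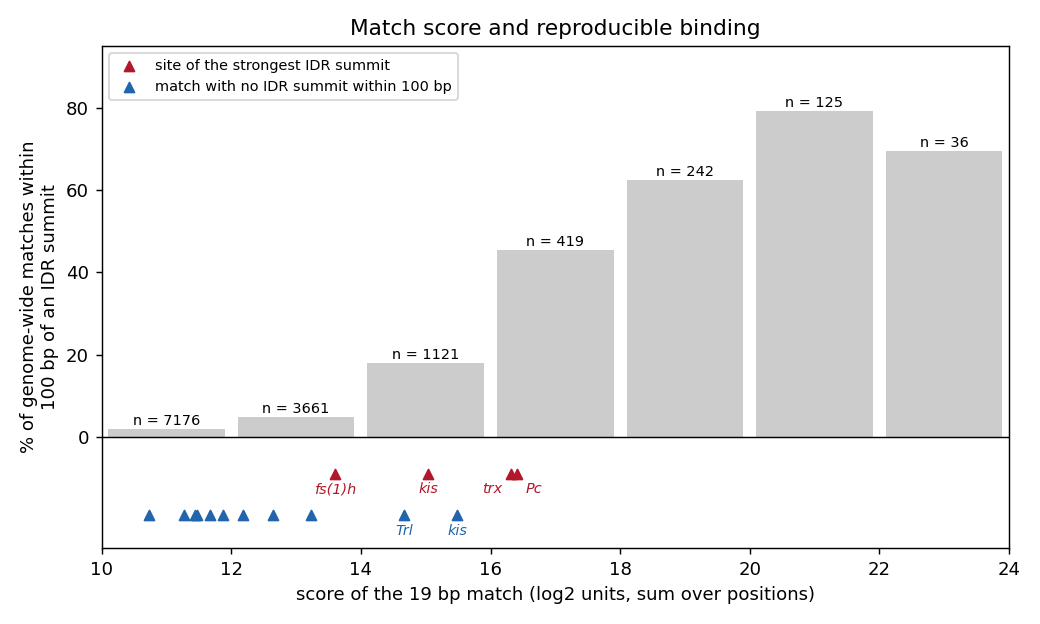
Percent of genome matches with an IDR summit within 100 bp against the matrix score in bins of 2, with red triangles at the scores of the 4 member sites and blue triangles at the members' matches without a peak. The share rises from 1.88% for scores of 10 to 12 to 79.2% for scores of 20 to 22, and is 69.4% of 36 matches for scores of 22 to 24.

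In the narrower window of 50 bp, 3 of the 6 member summits held the sequence at the score that 5% of flank windows exceed, those of fs(1)h, Pc and kis. Over the whole IDR list, which like the 6 includes neighbouring summits, 731 of 1338 held it. With neighbouring summits dropped, as in the 1088 below, 4 member summits remained and the same 3 held it. When each part of the 1088 other summits was scored with a matrix learned on the remainder, 63.7% held it, against 4.96% of 2176 flank windows. Another matrix, learned from the summits and resembling the core of the CTCF sequence, was held by 21.4% of the other summits and by none of the 6 at the members.

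By signal over the replicates, the protein-coding gene outside the list most like each bound member was found as the least Euclidean distance in log2 signal at the strongest TSS summit, over 2 libraries. It was CG3009 for trx at 0.02, dj-1beta for kis at 0.03, dod for Pc at 0.03 and CG42637 for fs(1)h at 0.05. At dod the signal was 793 in replicate 1 and 834 in replicate 3. At dj-1beta it was 377 and 447.

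The wider list of Polycomb and Trithorax group genes held 63 genes in 9 roles, the 10 members included. An IDR summit by the same rule was found at 8 of the 63, or 12.7%, and at 4 of the 53 that are not members, or 7.55%, a share near the 7.95% of all protein-coding genes. Of the listed Polycomb group genes, 1 of 29 had a summit, that gene being Pc. There was none at 8 genes of PRC2, 3 of the Pho repressive complex, 2 of the Polycomb deubiquitinase or 9 other Polycomb genes and recruiters. Of the listed Trithorax group genes, the GAGA factors included, 7 of 34 had one. These counts include the members, Pc in the first class and trx, kis and fs(1)h in the second. All the listed genes with a summit that are not members are in the second class. Median gene length was 7013 bp in the first class and 8157 bp in the second. The list was chosen with earlier results known and the difference between the classes was not tested.

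The other 4 listed genes with a summit differ in where it lies. The gene nej encodes the acetyltransferase CBP, and its summit on X at 9687950 had the highest signal of the whole list, 2118 at rank 86, with 936 in replicate 1 and 1173 in replicate 3. It lay 884 bp upstream of the TSS. The gene e(y)3 encodes a subunit of the PBAP form of the Brahma complex and had 3 summits, the strongest on X at 19638489 with a signal of 1196, 485 in replicate 1 and 691 in replicate 3. It lay 120 bp upstream of e(y)3 and 278 bp from Rcd-1. The weaker summits lay 78 and 12 bp from Rcd-1, nearer to it than to e(y)3 at 320 and 532 bp. The first of these, at 19638689, was within 300 bp of the strongest summit, at higher coordinates, with no 19 bp match within 100 bp. Whether the weaker summits are separate binding events was not tested. Ptip, a subunit of a COMPASS-like methyltransferase complex, had a summit 41 bp upstream of its TSS with a signal of 811, 368 in replicate 1 and 425 in replicate 3.

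The fourth, psq, encodes a protein that binds GAGAG sequences as the GAGA factor does. Its summit lay in an intron, 4725 bp from a TSS, with a signal of 1115, 502 in replicate 1 and 582 in replicate 3. It was the one listed gene whose summits lay outside 1000 bp of a TSS. Psc, a RING-finger subunit of PRC1 on 2R from 12965997 to 12980994, had none. Its strongest candidate was 41.2 in the pooled list, 18.4 in replicate 1 and 27.9 in replicate 3, and the nearest IDR summit, with a signal of 1327, lay 62350 bp away. No match without a peak was found at Psc.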

How the data were processed

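ChIP-seq peak lists on dm6 were used: the authors' optimal IDR list, and candidates of the pooled libraries and of biological replicates 1 and 3. Per the deposited notes, candidates were called against a control alignment and the IDR list was derived from the replicate and pooled lists. Not given in the sources used here were the aligner, the caller of peaks and the threshold of IDR. The signal of each peak was used as the authors deposited it, and its scale is not stated. The control experiment and the dm3 lists were not analysed here.

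Summits were placed in Ensembl release 115 gene models, and sequences came from RefSeq dm6. A summit counted for a gene inside it or within 1000 bp of a TSS. Summits within 100 bp were matched between lists, and the matched summits give the mean and SD. After 246 summits within 300 bp of a stronger one were dropped, the 19 bp matrix was started from the best of 10 8-mers. These were enriched within 50 bp of summits against flanks 250 bp away. The matrix was refined in 8 rounds with added bases either side of the 8-mer, then in 8 more on its most informative 19 bp. Its thresholds, 6.38 and 10.5, are the scores that 5% and 1% of flank windows exceed. The scripts were tested on simulated data. The genes named are the 10 members, every listed gene with an IDR summit, and the gene of most similar replicate signal for each bound member. Neighbouring genes and matches without a peak were named after their values were seen. Members and lists were chosen with earlier results of these data known. Alternatives covered the window, the peak threshold, neighbouring summits, each replicate alone, the matching distance and the matrix settings. Python 3.11.15, NumPy 2.4.6, SciPy 1.17.1, pandas 2.3.3 and matplotlib 3.10.9 were used.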

Additional observations from a re-analysis of the deposited data

How the results depend on the processing

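The same 4 members had an IDR summit under each of 7 alternatives, with TSS windows of 500, 1000 or 2000 bp, with the higher-signal part of the list, with neighbouring summits dropped, and from the strongest candidates of either replicate alone. Their strongest summits lay 25 to 239 bp from a TSS at ranks 137 to 451. The alternatives of window, list part and neighbours could therefore not have removed them. The count of listed genes was 6 to 8. The share of all protein-coding genes was 5.10% in the higher-signal part of the list, where fewer summits enter, and 5.68% to 9.61% under the other alternatives. All 4 members kept their matched summits in both replicates with matching distances of 50 and 200 bp. The count of member summits holding the 19 bp sequence was 3, and 5 when the window was 100 bp either side, a wider window by construction. With that window and the score that 1% of flanks exceed, a pair of settings joined after seeing the data, it was 4. No paired analysis was possible because there is 1 group. Signal is on a scale set by the authors within each list, so levels were not compared between the pooled and replicate lists, and 2 libraries limit the precision of each mean. Without read counts, weak binding below the candidate lists was not detectable.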

Other observations

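Short letters of other factors were counted on both strands in windows of 301 bp at 1092 IDR summits, neighbouring summits dropped. Windows away from summits were not counted. Whether any of these letters is more frequent at summits than elsewhere was therefore not tested, and short letters also occur by chance. GAGAG, letters bound by the GAGA factor, was in 22.3% of the windows and at none of the 6 summits of Pc, trx, kis and fs(1)h. CGATA, the core of sites of the boundary protein BEAF-32, was in 44.6% of the windows and at all 4 strongest summits, with 4 copies at fs(1)h, 3 at kis, 2 at trx and 2 at Pc. At the weaker summits it had 1 copy at Pc and 0 at trx.

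GGTCACAC, the core of the promoter element called motif 1, was searched after the letters of the windows had been seen. It was in 9.34% of the 1092 windows, with 1 copy at fs(1)h, 2 at trx and none at Pc or kis. The copy at fs(1)h lay 14 bp from the summit, and those at trx lay 24 and 45 bp from it. A match to letters is a description of the sequence and does not show that a factor was bound.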
